A study of Mus musculus with 6 samples.

Results

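Integrin alpha-v beta-8 and the TGF-beta pathway genes it feeds into were read in whole brains of Mfsd7c-/- and wild-type mouse embryos. The set was chosen by symbol, with earlier results of these data known. It holds 10 genes, Itgb8, Itgav, Tgfb1, Tgfb2, Tgfbr1, Tgfbr2, Tgfbr3, Eng, Acvrl1 and Smad7, out of 52459 symbols in the deposited count table. All 10 had enough counts to be tested. The ligand gene Tgfb1 and the co-receptor gene Eng rose in knockout brains, by 1.78-fold and 1.74-fold. The integrin subunit genes, the other ligand gene and the remaining receptor genes did not pass the test.

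The tested group was 3 brains of Mfsd7c-/- embryos, and it was set against 3 brains of wild-type embryos. Both groups were C57BL/6 and were taken at E14.5. Each library came from total RNA of a whole dissected brain, so a transcript made by vessels is read among transcripts of all other brain cells. The sources used here do not say how the Mfsd7c allele was made, what part of the gene it removes, or whether the embryos were littermates.

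The integrin made of the alpha-v and beta-8 chains sits on neuroepithelial cells and radial glia, the progenitors of the embryonic brain. It binds the latent form of TGF-beta and makes the ligand available to receptors on neighbouring cells, including the endothelium of ingrowing vessels. Mice without either chain are known for malformed and bleeding brain vessels. Active TGF-beta binds the type II receptor encoded by Tgfbr2, which engages the type I receptor encoded by Tgfbr1 and leads to phosphorylation of SMAD transcription factors. Endothelial cells carry an additional type I receptor, encoded by Acvrl1, and the co-receptor endoglin, encoded by Eng. Mutations in those last 2 genes cause hereditary haemorrhagic telangiectasia in people.

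Depth ran from 43784619 to 50549673 counts a library. Biological variation between samples, as a coefficient common to all genes, came to 15.3%. Values below are CPM, counts scaled to a common library size with TMM factors. Mfsd7c itself had 119, 129 and 130 counts in knockout replicates 1, 2 and 3, against 206, 291 and 259 counts in the wild-type replicates, so its transcript was lowered but not absent. The libraries also differed in ways the labels do not explain. Epidermal marker transcripts (Krt5, Krt14, Krt15 and Trp63) were highest in the libraries numbered 1, at a sum of 206 CPM for knockout and 163 CPM for wild-type, and reached at most 37.9 CPM elsewhere. Markers of hindbrain and spinal cord, 6 Hox genes, summed to 0.572 to 2.05 CPM in knockout libraries and to 2.93, 51.7 and 23.6 CPM in wild-type replicates 1, 2 and 3. The embryonic share of beta-globin counts, which falls as an embryo matures, was 2.80%, 23.6% and 5.03% in the knockout brains, against 4.49%, 23.3% and 26.5% in wild-type (replicates 1, 2 and 3). One wild-type library, replicate 2, had 82198 Xist counts, and the other 5 libraries had 6 to 27. Fits without these libraries, or with a term for them, are given for genes whose call they change.

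Of the 10 genes, 2 were higher and 0 lower in knockout at a false discovery rate of 0.05 in edgeR's quasi-likelihood test. Among all 19565 genes tested, 0.624% were called higher and 0.0358% lower. The median log2 fold change of the 10 genes was 0.16, and 8 of the 10 had a positive value. Over all tested genes the median was -0.0099, and 47.4% had a positive value. An unadjusted p under 0.05 was reached by 4 of the 10, all higher, against 4.63% of all tested genes that were higher at that level. At a false discovery rate of 0.01, where 0.230% of all genes were higher and 0.0204% lower, Eng alone of the 10 was called. Knockout and wild-type values did not overlap for 6 of the 10, all higher in knockout, where 7.84% of all tested genes were higher without overlap and 6.58% lower without overlap. Of these 6, Tgfb1 and Eng passed the test over all genes, and Itgav, Tgfbr1, Acvrl1 and Smad7 did not. The 10 genes were chosen with earlier results of these data known, so the shares over all genes do not test the set.

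**Figure D1:**
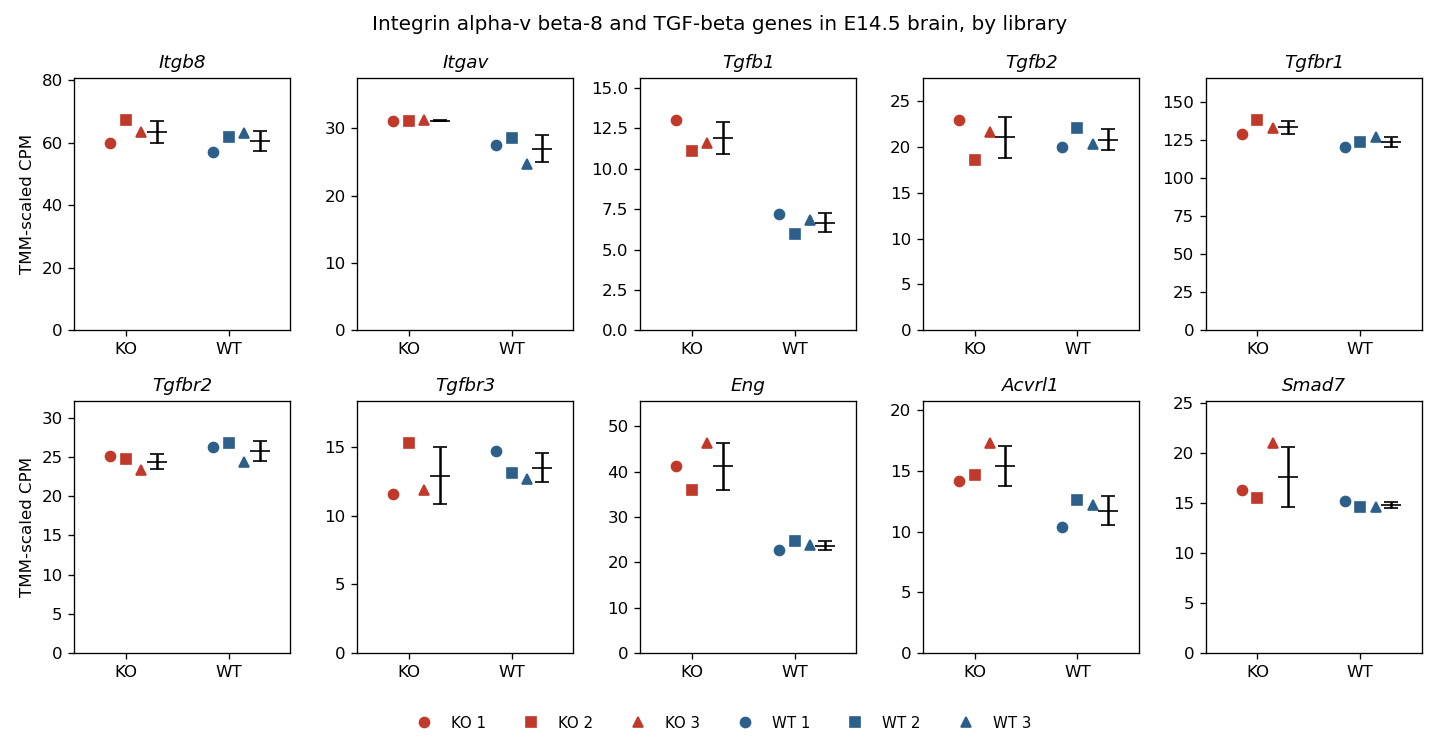
Expression of the 10 genes in TMM-scaled CPM (y axis, from 0, its own scale in each panel) in each knockout (KO, red, left) and wild-type (WT, blue, right) library, with the group mean and SD as a black bar (n = 3 each). Tgfb1 and Eng are separated most widely, with KO values of 11.1 to 13.0 and 35.9 to 46.3 CPM against WT values of 5.99 to 7.17 and 22.7 to 24.6 CPM.

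The promoters of the genes that rose are shown because transcript levels of both moved in the same direction. The stretches below are the 250 bases before the RefSeq start on GRCm38.p6, on the plus strand, at chr2:32646345-32646594 for Eng and at chr7:25686752-25687001 for Tgfb1. Capitals mark CAGAC or its reverse complement GTCTG, the core that SMAD proteins bind.
Eng promoter: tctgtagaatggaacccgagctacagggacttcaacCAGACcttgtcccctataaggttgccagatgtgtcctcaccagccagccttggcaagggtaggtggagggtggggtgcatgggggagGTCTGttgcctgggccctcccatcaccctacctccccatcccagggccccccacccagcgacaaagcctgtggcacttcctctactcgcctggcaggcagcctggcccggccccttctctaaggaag
Tgfb1 promoter: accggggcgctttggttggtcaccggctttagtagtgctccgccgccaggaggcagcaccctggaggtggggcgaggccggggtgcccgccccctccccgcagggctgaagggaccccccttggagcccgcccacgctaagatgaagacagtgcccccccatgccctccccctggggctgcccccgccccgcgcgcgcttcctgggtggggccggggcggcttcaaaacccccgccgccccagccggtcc

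Both strands were searched for 3 motifs that do not overlap each other, CAGAC, the palindromic SMAD motif GGCGCC, and ACGTG, 1 form of the hypoxia response core. Other forms of the hypoxia and SMAD cores were not searched, so a stretch without these 3 motifs may still hold such a core. The Eng stretch held 2 matches to CAGAC and none to the others, and the Tgfb1 stretch, which is 75.2% G and C, held none of the 3. RefSeq promoters of 7 of the 10 genes were searched, Tgfbr1 having a second start. Those of Tgfbr3, Acvrl1 and Smad7 were not used, so the counts below leave these genes out. CAGAC was present in those of Eng, Itgb8, Tgfb2 and Tgfbr2 and at 1 of the Tgfbr1 starts, and it was present in 42.2% of all 32851 promoter stretches of this length. ACGTG was found for Tgfb2 alone among the 7, against 16.6% of all stretches. GGCGCC was found at 1 Tgfbr1 start, against 9.59% of all stretches. These are matches of letters and do not show binding.

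The integrin chains came first in the pathway. Itgb8 (ENSMUSG00000025321.14, chromosome 12, 119158022 to 119238802, minus strand, GRCm38) encodes the beta-8 chain, which pairs only with alpha-v. Its level was 59.8, 67.1 and 63.3 CPM in knockout replicates 1, 2 and 3, against 57.0, 61.7 and 63.1 CPM in the wild-type replicates. The groups overlapped, with a log2 fold change of only 0.066 (SE 0.0669) that missed the edgeR threshold (adjusted p = 0.852). The 95% interval of the fold change ran from 0.942 to 1.16.

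Itgav (ENSMUSG00000027087.11, chromosome 2, 83724397 to 83806916) encodes the alpha-v chain, which is shared by several beta chains. It had 31.1, 31.1 and 31.2 CPM in knockout replicates 1, 2 and 3, against 27.6, 28.6 and 24.7 CPM in the wild-type replicates. All knockout values lay above all wild-type values, but the log2 fold change of 0.21 (SE 0.0738) did not pass over all genes (edgeR, adjusted p = 0.483). The knockout libraries were very close to each other for this gene, with a coefficient of variation of 0.207%, which is below the counting error of up to 2.86% per library. The ratio of Itgb8 to Itgav, in CPM per kilobase of merged exons, averaged 1.98 ± 0.114 in knockout and 2.19 ± 0.253 in wild-type brains (SD, n = 3 each). The ratios overlapped (log2 difference -0.15, two-sided exact permutation test, p = 0.200).

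Other integrin beta chains that pair with alpha-v were on a list of 17 genes for the latent complex and its activation. Itgb3, the beta-3 chain of the vitronectin receptor and of the platelet fibrinogen receptor, had 7.60, 5.80 and 6.84 CPM in knockout libraries, against 3.95, 3.64 and 3.27 CPM in wild-type libraries. The groups were apart, and Itgb3 rose by 0.90 on the log2 scale (SE 0.151, edgeR, adjusted p = 0.0416). That call was lost in limma-voom (adjusted p = 0.0579), when knockout replicate 1 (0.200) or 3 (0.289) was left out, and when wild-type replicate 2 (0.227) or 3 (0.218) was. A sex term also took it past 0.05 (adjusted p = 0.233), as did omitting both Hox-expressing libraries (0.385). Platelet markers Pf4, Itga2b and Gp9 summed to 12.9 to 13.0 CPM in knockout and 11.5 to 12.3 CPM in wild-type libraries, with 0 of the 3 called, and their part in the Itgb3 difference was not tested. Itgb1, the common beta-1 chain, averaged 248 ± 7.65 CPM in knockout and 205 ± 10.3 CPM in wild-type brains (SD, n = 3 each) without overlap. It missed the threshold in edgeR (adjusted p = 0.138) but was under it, at 0.00654, in the authors' deposited table. In edgeR it also passed when wild-type replicate 1 (adjusted p = 0.0248) or both Krt5 libraries (0.0190) were left out, and with the beta-globin term (0.0278). Itgb5 did not pass (log2 fold change 0.14), and Itgb6 was too scarce to test, with 2 to 12 counts per library.

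Among the ligands, Tgfb1 stood out. Tgfb1 (ENSMUSG00000002603.15, chromosome 7, 25687002 to 25705077, plus strand) encodes a form of TGF-beta whose latency peptide carries an integrin-binding site recognised by alpha-v beta-8. Its counts were 560, 562 and 557 in knockout replicates 1, 2 and 3, against 318, 301 and 343 in the wild-type replicates. In CPM these were 13.0, 11.1 and 11.6 in knockout and 7.17, 5.99 and 6.84 in wild-type libraries. The lowest knockout library was well above the highest wild-type library.

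The means for Tgfb1 were 11.9 ± 0.978 CPM in knockout and 6.67 ± 0.611 CPM in wild-type brains (SD, n = 3 each). It rose 1.78-fold, with a 95% interval from 1.48 to 2.15 (log2 fold change 0.84, SE 0.117, edgeR quasi-likelihood test, adjusted p = 0.0183). Within the low-globin libraries (knockout replicates 1 and 3 and wild-type replicate 1) the log2 difference was 0.77, and within the high-globin libraries (knockout replicate 2 and wild-type replicates 2 and 3) it was 0.79. Leaving out knockout replicate 1 or 3 gave an adjusted p of 0.0981 or 0.126, and leaving out wild-type replicate 2 or 3 gave 0.119 or 0.0977, while the log2 fold change stayed between 0.76 and 0.89 over all 6 fits that each left out 1 library. In the authors' deposited table, from the same libraries, the log2 fold change of Tgfb1 was 0.84 (adjusted p = 1.37e-07).

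Tgfb2 (ENSMUSG00000039239.14, chromosome 1, 186622792 to 186705989, minus strand) encodes a ligand that lacks that integrin-binding site. Its counts were 987, 946 and 1036 in knockout libraries, against 888, 1109 and 1020 in wild-type libraries. The groups overlapped fully, with a fold change of 1.01 and a 95% interval from 0.871 to 1.17 (edgeR, adjusted p = 0.980). Tgfb3, the third ligand gene and a member of the latent complex list, had 7.60, 7.75 and 8.33 CPM in knockout libraries, against 11.3, 7.84 and 6.28 CPM in wild-type libraries, and also overlapped (log2 fold change -0.10, edgeR, adjusted p = 0.934).

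The balance among ligand transcripts followed from these levels. On the scale of CPM per kilobase, Tgfb1 made up 29.3%, 28.5% and 27.1% of the summed level of the 3 ligand genes in knockout replicates 1, 2 and 3, against 17.3%, 16.2% and 20.2% in the wild-type replicates. The Tgfb1 shares did not overlap between the groups, whereas those of Tgfb2 and Tgfb3 did. Tgfb2 remained the most abundant of the 3 in every library, at 41.8% to 45.0% in knockout and 42.1% to 52.2% in wild-type brains. The ratio of Tgfb2 to Tgfb1 was 1.53, 1.47 and 1.62 in knockout libraries, against 2.43, 3.21 and 2.59 in wild-type libraries. This difference of -0.82 on the log2 scale had p = 0.10 in a two-sided exact permutation test, the smallest that 3 against 3 libraries can give (adjusted p = 0.125 over 5 ratios). The summed level of all 3 ligand genes overlapped, at 8.33 ± 0.553 CPM per kilobase in knockout and 7.42 ± 0.747 CPM per kilobase in wild-type brains (SD, n = 3 each).

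**Figure D2:**
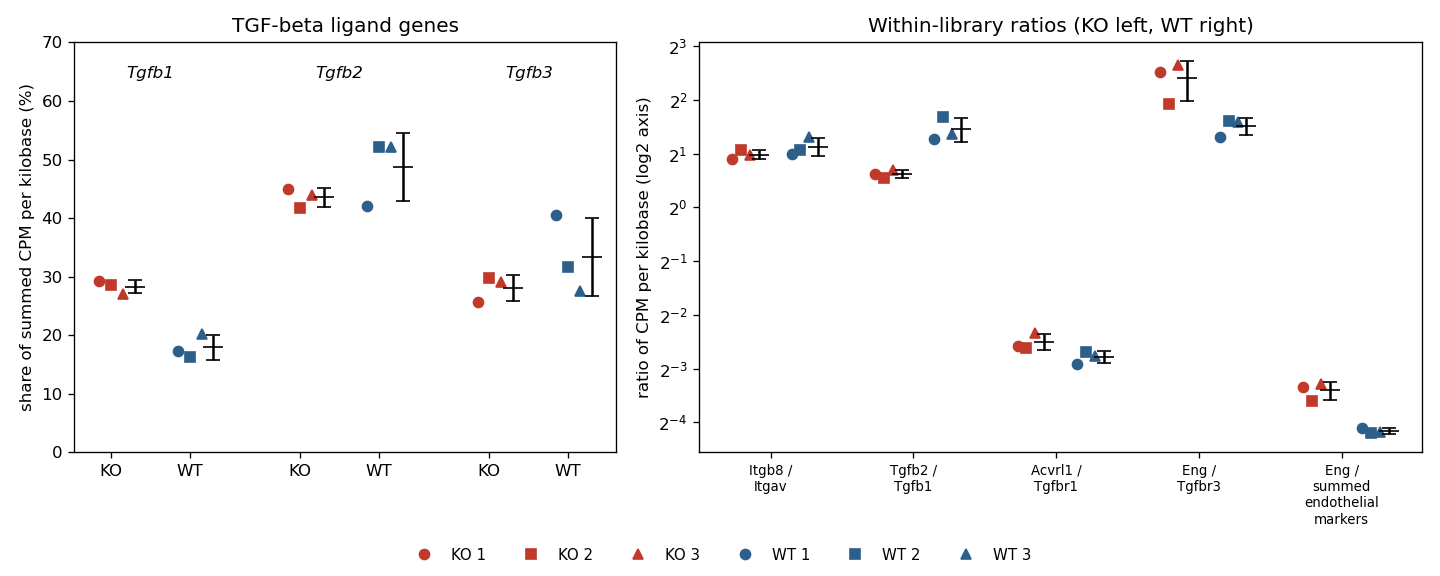
Left, the share of each ligand gene in the summed CPM per kilobase of Tgfb1, Tgfb2 and Tgfb3 (percent). Right, within-library ratios of CPM per kilobase on a log2 axis, each with knockout (KO, red) left of wild-type (WT, blue); points are libraries and black bars are mean and SD (n = 3 each). The Tgfb1 share is 27.1% to 29.3% in KO and 16.2% to 20.2% in WT libraries, and the ratio of Itgb8 to Itgav is the 1 ratio whose groups overlap.

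The remaining genes of the latent complex list, which includes the latent TGF-beta binding proteins, fibrillins and anchoring proteins, gave no call in edgeR. Of its 17 genes 16 were tested, 1 rose (Itgb3), 0 fell and 15 did not pass, with a median log2 fold change of -0.0020. Among all tested genes 0.624% were called higher and 0.0358% lower. Values of 3 of the 16 were higher and of 0 lower without overlap, against 7.84% and 6.58% of all tested genes. Nrros anchors latent TGF-beta on microglia and macrophages. It averaged 8.85 ± 0.718 CPM in knockout and 6.61 ± 0.281 CPM in wild-type brains (SD, n = 3 each) without overlap, and it did not pass (edgeR, adjusted p = 0.272). Microglia and macrophage markers summed to 159.6 to 188 CPM in knockout and 149.5 to 165 CPM in wild-type libraries, with 0 of 11 called, and their part in the Nrros values was not tested. Ltbp4, a latent TGF-beta binding protein gene, averaged 40.1 CPM in knockout and 42.5 CPM in wild-type brains (log2 fold change -0.084).

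Tgfbr1 (ENSMUSG00000007613.15, chromosome 4, 47353222 to 47414931) encodes the type I receptor and had the highest level of the 10 genes per kilobase, at 20.4 CPM per kilobase in knockout and 19.0 in wild-type brains. In CPM it had 129, 138 and 133 in knockout libraries, against 120, 124 and 127 in wild-type libraries. The groups were apart by a narrow margin, and the fold change of 1.07 (95% interval 0.989 to 1.17) did not pass (edgeR, adjusted p = 0.675). Tgfbr2 (ENSMUSG00000032440.13, chromosome 9, 116084293 to 116175360), the type II receptor gene, had 25.1, 24.8 and 23.3 CPM in knockout libraries, against 26.3, 26.8 and 24.4 CPM in wild-type libraries. Those values overlapped (log2 fold change -0.081, edgeR, adjusted p = 0.828).

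Eng (ENSMUSG00000026814.16, chromosome 2, 32646595 to 32682669, plus strand) encodes endoglin, a co-receptor concentrated on endothelium that works with the Acvrl1 receptor. Its counts were 1780, 1819 and 2219 in knockout replicates 1, 2 and 3, against 1007, 1236 and 1187 in the wild-type replicates. In CPM these were 41.3, 35.9 and 46.3 in knockout and 22.7, 24.6 and 23.7 in wild-type libraries. Every knockout library lay above every wild-type library, and the knockout libraries were the more variable, with a coefficient of variation of 12.7% against 3.98% in wild-type.

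Eng rose 1.74-fold, with a 95% interval from 1.49 to 2.03 (log2 fold change 0.80, SE 0.0973, edgeR quasi-likelihood test, adjusted p = 0.00990). The log2 difference was 0.94 within the low-globin libraries and 0.57 within the high-globin libraries, where knockout is 1 library. Its adjusted p moved past 0.05 when knockout replicate 1 (adjusted p = 0.0543) or 3 (0.0536) was left out, and when wild-type replicate 2 (0.0671) or 3 (0.0738) was. Over the 6 fits that each left out 1 library the log2 fold change stayed between 0.70 and 0.89. In the authors' deposited table the log2 fold change of Eng was 0.80 (adjusted p = 3.42e-10). A short stretch of Eng exons overlaps Fpgs on the opposite strand. With the counting strand not given in the sources used here, reads there cannot be told apart, and the same holds for Acvrl1, Itgav and Tgfb2 with short antisense partners.

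Endothelial markers moved with Eng in part. Their summed level, over 12 genes, was 442 to 484 CPM in knockout and 337 to 406 CPM in wild-type libraries, without overlap. Pecam1 and Cd34, the markers with the largest rises, are part of that sum, and the sum without them was not compared. Taken singly, 5 of the 12 were higher without overlap, 2 were lower without overlap and the rest overlapped. The sum therefore does not show a rise of the list as a whole. Of the 12 markers 3 rose, 1 fell and 8 did not pass, where 0.624% of all tested genes were called higher and 0.0358% lower. Pecam1, an adhesion molecule of endothelial junctions, had a log2 fold change of 1.00 (SE 0.0829), Cd34 had 1.14 (SE 0.0695) and Emcn had 0.79 (SE 0.115). Cldn5, the claudin of the blood-brain barrier, fell by 0.50 on the log2 scale. Cdh5, Kdr, Tie1, Erg, Ptprb, Egfl7, Esam and Tek did not pass, with log2 fold changes from -0.49 (Tek) to 0.45 (Esam). In whole-brain RNA, a change in the number of endothelial cells and a change in RNA per endothelial cell cannot be told apart.

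The size of the Eng difference relative to the endothelial list depended on the scale and on the marker. Pecam1 and Cd34 had larger log2 fold changes than Eng. The ratio of Eng to the summed endothelial markers, in CPM per kilobase, was 0.0984, 0.0824 and 0.103 in knockout replicates 1, 2 and 3, against 0.0582, 0.0547 and 0.0549 in the wild-type replicates. The groups did not overlap, and the log2 difference was 0.75, or 0.51 from counts with no division by length (for 0.75, two-sided exact permutation test, p = 0.10, adjusted p = 0.125 over 5 ratios). On the per-kilobase scale Cldn5, which fell, is the largest term of the sum, at 32.3 CPM per kilobase in knockout and 45.9 CPM per kilobase in wild-type brains. Pericyte and smooth muscle markers summed to 264 to 315 CPM in knockout and 348 to 368 CPM in wild-type libraries, with 1 of 10, Rgs5, lower and 0 higher. Of all tested genes, 0.0358% were called lower and 0.624% higher. Within that sum, Rgs5 alone averaged 39.3 CPM in knockout and 95.5 CPM in wild-type brains. The part of pericyte and smooth muscle markers in the Eng difference was not tested.

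Acvrl1 (ENSMUSG00000000530.16, chromosome 15, 101128522 to 101145336), the endothelial type I receptor gene, had 14.2, 14.7 and 17.3 CPM in knockout libraries, against 10.4, 12.6 and 12.2 CPM in wild-type libraries. The values did not overlap. The fold change was 1.31 with a 95% interval from 1.09 to 1.58, and it did not pass over all genes (log2 fold change 0.39, SE 0.115, edgeR, adjusted p = 0.349), nor in the authors' deposited table (adjusted p = 0.118). The log2 difference was 0.58 within the low-globin and 0.25 within the high-globin libraries. The ratio of Acvrl1 to Tgfbr1, in CPM per kilobase, was 0.168, 0.164 and 0.199 in knockout libraries, against 0.133, 0.155 and 0.147 in wild-type libraries. That is a log2 difference of 0.29 with no overlap (two-sided exact permutation test, p = 0.10, adjusted p = 0.125 over 5 ratios).

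Tgfbr3 (ENSMUSG00000029287.14, chromosome 5, 107106570 to 107289629) encodes betaglycan, a co-receptor related to endoglin that presents TGF-beta, the Tgfb2 product above all. It had 11.6, 15.3 and 11.9 CPM in knockout libraries, against 14.7, 13.1 and 12.7 CPM in wild-type libraries. The groups overlapped (log2 fold change -0.062, edgeR, adjusted p = 0.938). Its sign differed between the library sets, at -0.33 within the low-globin and 0.25 within the high-globin libraries. The ratio of Eng to Tgfbr3, in CPM per kilobase, was 5.77, 3.79 and 6.31 in knockout libraries, against 2.49, 3.04 and 3.02 in wild-type libraries. The log2 difference was 0.86, without overlap (two-sided exact permutation test, p = 0.10, adjusted p = 0.125 over 5 ratios).

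Smad7 (ENSMUSG00000025880.11, chromosome 18, 75367529 to 75395935) encodes an inhibitory SMAD that TGF-beta itself induces and that turns its receptors off. Its counts were 702, 786 and 1004 in knockout libraries, against 675, 733 and 733 in wild-type libraries, or 17.6 ± 2.95 CPM in knockout and 14.8 ± 0.357 CPM in wild-type brains (SD, n = 3 each). Knockout replicate 3 was well above the rest, and the other knockout libraries were close to wild-type. The log2 fold change was 0.25 (SE 0.120, edgeR, adjusted p = 0.655), and it was 0.10 without knockout replicate 3.

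**Figure D3:**
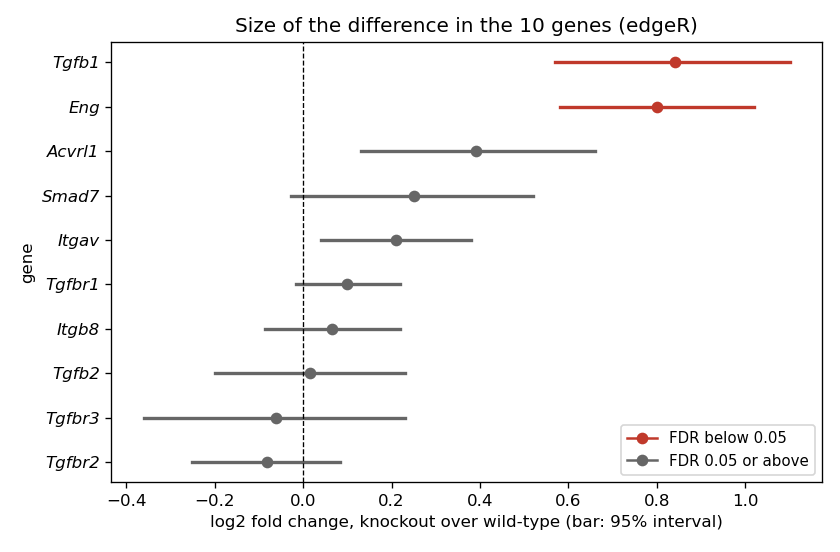
Log2 fold change of the 10 genes, knockout over wild-type (x axis), with points at the edgeR estimate and bars for the 95% interval; red marks a false discovery rate below 0.05. The intervals of Tgfb1 (0.57 to 1.10) and Eng (0.58 to 1.02) lie apart from those of Itgb8 and Tgfb2, and those of Acvrl1 and Itgav lie above 0 without passing over all genes.

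In order of level per kilobase, by the mean over both groups, the 10 genes ran Tgfbr1, Eng, Itgb8, Tgfb2, Smad7, Acvrl1, Tgfbr2, Itgav, Tgfbr3 and Tgfb1. Tgfbr1 was above Eng in all libraries, with Eng at 5.61 to 11.4 CPM per kilobase. Itgb8, at 5.16 to 6.07, overlapped Eng and lay above Tgfb2, at 3.22 to 3.95 CPM per kilobase. From Tgfb2 down to Tgfb1 each gene overlapped the next. Tgfb1 averaged 2.36 ± 0.194 CPM per kilobase in knockout and 1.32 ± 0.121 CPM per kilobase in wild-type brains (SD, n = 3 each). It was thus the lowest of the 10 in wild-type brains, whereas in knockout brains Tgfbr3 was lower, at 1.97 CPM per kilobase.

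Genes known to respond to TGF-beta or to the related BMP ligands were read from a list of 17. Of these 1 rose, 0 fell and 16 did not pass, with a median log2 fold change of 0.028. Over all tested genes 0.624% were called higher and 0.0358% lower. Some response genes that did not pass still lay apart between the groups. Tgfbi, a matrix protein gene named for its induction by TGF-beta, averaged 12.7 ± 1.10 CPM in knockout and 9.11 ± 0.550 CPM in wild-type brains (SD, n = 3 each; edgeR, adjusted p = 0.141). The authors' deposited table gives it an adjusted p of 0.00713, and it reached 0.0410 in edgeR with the beta-globin term. Of the 18 alternatives to the fit reported, 3 called Tgfbi. Pmepa1, which encodes a membrane protein that dampens TGF-beta signalling, had a log2 fold change of 0.30 and Skil, a SMAD co-repressor gene, had 0.22. In all, 6 of the 17 were higher in knockout without overlap, and 1, Id3, was lower, where 7.84% of all tested genes were higher and 6.58% lower without overlap. Id1 and Id3, targets of the Acvrl1 and BMP branch, had log2 fold changes of -0.11 and -0.14 (edgeR, adjusted p = 0.844 and 0.702). Smad6, the inhibitory SMAD of that branch, had -0.00040. Other genes of the list went both ways without passing. Bambi, Hey1 and Id2 had 0.32, 0.20 and 0.019, and Atoh8 and Tmem100 had -0.21 and -0.18. Fibroblast markers, whose cells also express collagens and fibronectin, overlapped between the groups at 485 to 565 CPM in knockout and 409 to 792 CPM in wild-type libraries.

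The other receptors and SMADs, 20 genes, gave 0 calls in either direction in edgeR, and 0 in the DESeq2 Wald test. Of these, 6 had an unadjusted p under 0.05, all higher, against 4.63% of all tested genes that were higher at that level. Of the 20, 18 had positive log2 fold changes, where 47.4% of all tested genes did, and the median was 0.073. Values of 7 were higher and of 0 lower without overlap, against 7.84% and 6.58% of all tested genes. Bmpr2, the type II receptor gene for BMP ligands, averaged 177 ± 7.32 CPM in knockout and 152 ± 2.38 CPM in wild-type brains (SD, n = 3 each; edgeR, adjusted p = 0.232). Smad4, the SMAD shared by both branches, averaged 108 ± 0.992 CPM in knockout and 96.3 ± 3.20 CPM in wild-type brains (SD, n = 3 each; edgeR, adjusted p = 0.353). Acvr2a and Bmpr1b, receptor genes for activins and BMPs, had log2 fold changes of 0.14 and 0.29.

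The other ligands of the superfamily, 11 genes, also gave 0 calls in edgeR and in the DESeq2 Wald test, with a median of 0.028. The lowest p among them was that of Gdf11, at 39.1 ± 1.66 CPM in knockout and 43.9 ± 1.67 CPM in wild-type brains (SD, n = 3 each; edgeR, adjusted p = 0.539). Inhba, an activin subunit gene, had 7.97, 2.90 and 6.07 CPM in knockout libraries, against 5.64, 1.91 and 2.29 CPM in wild-type libraries. The groups overlapped (edgeR, adjusted p = 0.758). Its values were higher in the low-globin than in the high-globin libraries, and within each set knockout was above wild-type. Bmp7 and Inhbb had log2 fold changes of 0.14 and 0.16. Gdf2 and Bmp10, the ligands with the highest known affinity for the Acvrl1 receptor, were too scarce to test. Gdf2 had 0 counts in each knockout library and 3, 5 and 0 in the wild-type replicates, and Bmp10 had 1, 0 and 1 counts in the knockout replicates and 0 in each wild-type library.

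**Figure D4:**
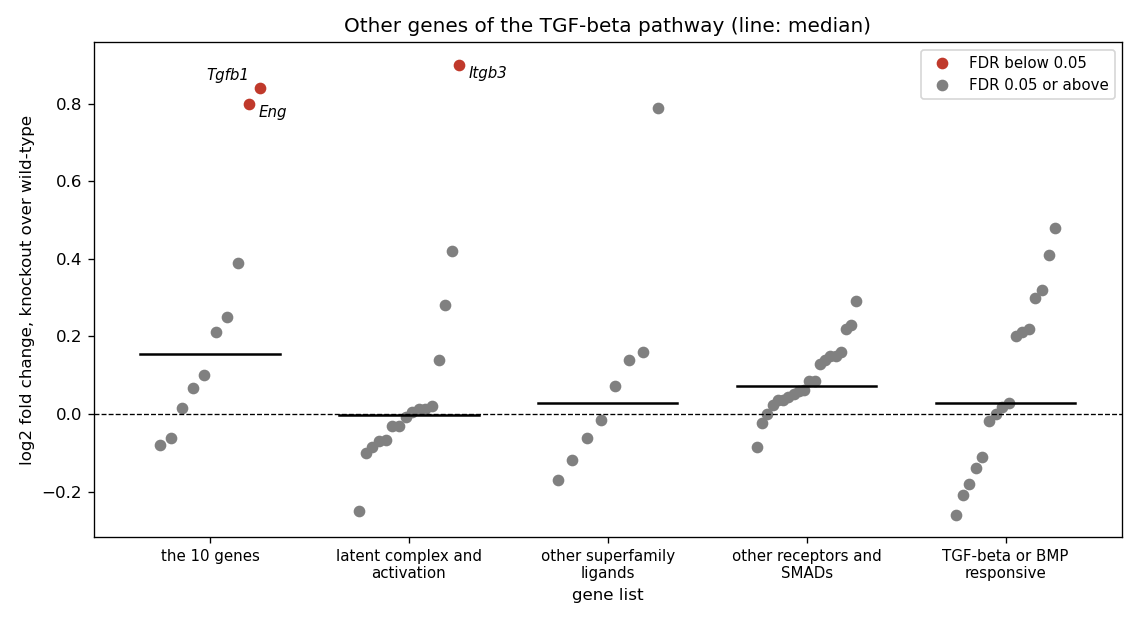
Log2 fold change, knockout over wild-type (y axis), of tested genes in the 10-gene set and in 4 lists of other pathway genes (x axis), with the list median as a black line; red marks a false discovery rate below 0.05. Beside Tgfb1 and Eng, the red point drawn is Itgb3 at 0.90, 16 of the 17 responsive genes are drawn, and medians, which are over all tested genes of a list, of the 4 other lists lie between -0.0020 and 0.073.

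Over the 65 genes of the 4 lists, 61 were tested, and 2 were higher and 0 lower in edgeR, where 0.659% of all genes passed in either direction. The DESeq2 Wald test called 4, with Itgb1 and Tgfbi added, and there 1.22% of all tested genes were called higher and 0.282% lower. Radial glia markers, from the cells in which the beta-8 chain is known to act, summed to 2022 to 2104 CPM in knockout and 2010.0 to 2108 CPM in wild-type libraries, with 0 of 9 called. Neuron markers overlapped as well, at 4313 to 4931 CPM in knockout and 4319 to 5184 CPM in wild-type libraries. Markers of both cell types were thus present in every library of the labelled tissue.

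The fits are compared for the genes nearest to a call in the plot of adjusted p by fit. Eng kept an adjusted p below 0.05 in all fits with 6 libraries apart from the 1 with a sex term, and so did Tgfb1. The sex term sets apart a single library, wild-type replicate 2, and gave an adjusted p of 0.0667 for Eng and 0.127 for Tgfb1. When wild-type replicates 2 and 3, the Hox-expressing libraries, are both left out, the 1 remaining wild-type library is assumed to vary like the knockout libraries. The log2 fold change there was 0.86 for Eng (adjusted p = 0.120) and 0.73 for Tgfb1 (adjusted p = 0.254). Without knockout replicate 1 and wild-type replicate 1, which hold the most Krt5, both genes passed, at 0.77 and 0.82 on the log2 scale.

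**Figure D5:**
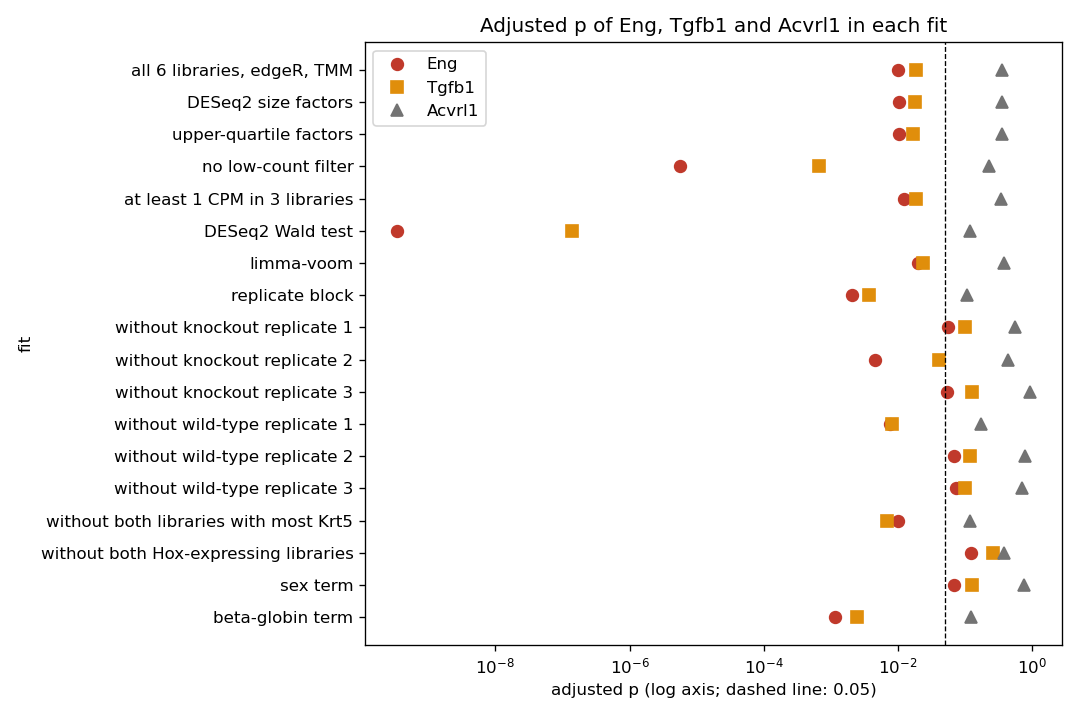
Adjusted p (x axis, log scale, dashed line at 0.05) of Eng (circles), Tgfb1 (squares) and Acvrl1 (triangles) in each fit (y axis). Eng and Tgfb1 cross the line together in the fits without knockout replicates 1 or 3, without wild-type replicates 2 or 3, without both Hox-expressing libraries and with the sex term, and Acvrl1 stays right of it in every fit shown.

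The profile of 4 genes over the 6 libraries was set against 11736 genes of at least 5 CPM, by the root mean square difference of log2 CPM after centring each gene. For Tgfb1 the nearest genes were Plxnd1 at 0.0688, Atf5 at 0.0829 and Pgam1 at 0.103, with log2 fold changes of 0.83, 0.69 and 0.84. For Eng they were Lcp1 at 0.0350, Higd1a at 0.0561 and A2m at 0.0635, with log2 fold changes of 0.81, 0.82 and 0.81. The nearest to Acvrl1 were Abhd18, Lamc1 and Rlf at 0.0404 to 0.0434. Itgb8, whose own profile varied by only 0.0727, was nearest to Ppp1r18, Pcf11 and Wnk1 at 0.0114 to 0.0169. The own variation of Tgfb1, Eng and Acvrl1 was 0.429, 0.411 and 0.230. Each distance is among the smallest over 11736 genes, so all 4 genes have distances that are small by selection.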

How the data were processed

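The authors deposited raw whole-number counts per symbol for 6 whole-brain libraries, grouped here by title. The submitters' processing notes name STAR 2.5.2a, featureCounts and DESeq2 1.12.4 along with the builds mm10 and hg19, whose roles they leave out. Strand setting and annotation release were not stated there. The authors also deposited their own DESeq2 comparison, which gives per gene, per the file headers, a mean normalized signal, the log2 fold change and its error, the Wald score, and p-values before and after adjustment.

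Genes were kept by filterByExpr, scaled by TMM and tested with the robust quasi-likelihood test of edgeR 4.0.16, knockout over wild-type, with Benjamini-Hochberg adjustment over all 19565 genes at 0.05. Standard errors are the size of the log2 fold change divided by the root of the F statistic. Lengths (merged exons) and coordinates come from GENCODE M21 on GRCm38, and promoters from RefSeq on GRCm38.p6. Ctgf, the older symbol of Ccn2, matched no GENCODE length. The code was tested on simulated counts. DESeq2 1.42.0, limma 3.58.1 (voom), other scalings, filters, left-out libraries and added terms were alternatives, in R 4.3.3.

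The members and lists were chosen with earlier results of these data known. All 10 members are named, and of each other list the called genes and the 4 with the lowest p (1 called gene is not reported here); a few more were named after their values were seen, among them Tgfb3, Itgb5, Itgb6, Id1, Id3, Smad6, Gdf2 and Bmp10. No label places the samples in separate litters, so p-values describe only the spread among these samples, which may be technical. The smallest count of a member in any library was 301, a counting error of 5.76%. No library pair agreed within sampling noise.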

Additional observations from a re-analysis of the deposited data

How the results depend on the processing

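Of the 10 genes 2 were called higher. Leaving out single libraries gave 0 to 2, with 0 for knockout replicates 1 and 3 and for wild-type replicates 2 and 3. With the sex term 0 were called, without both Hox-expressing libraries 0, and at a false discovery rate of 0.01 there was 1. No alternative called a member lower. Of all genes, 129 passed, with 20 to 459 over all alternatives: 211 with no low-count filter, 308 in the DESeq2 Wald test, 36 to 388 without single libraries, 459 without both libraries with most Krt5, 20 without both Hox-expressing libraries, 37 with the sex term, 236 with the beta-globin term and 49 at 0.01. Of the other pathway genes 2 passed. The DESeq2 Wald test gave 4, limma-voom 1, the fit without both Krt5 libraries 4, that without both Hox libraries 0, the sex term 1, the beta-globin term 4, a rate of 0.01 gave 1, and single left-out libraries 0 to 3.

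Directions turned only for genes that had not passed. With 1 library left out at a time, log2 fold changes ran from -0.047 to 0.098 for Tgfb2, from -0.20 to 0.011 for Tgfbr3 and from -0.06 to 0.29 for Bmp7. Tgfb2 was -0.074 without both Krt5 libraries and -0.017 with the beta-globin term. Tgfbr3 was 0.08 without both Krt5 libraries, and Ltbp4 was 0.068 without both Hox libraries. The 5 ratios kept their sign in all alternatives. The causes were not tested.

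No label says whether replicate numbers pair the samples. Deviations from group means correlated at 0.587, 0.310 and 0.0337 for numbers 1, 2 and 3, which cannot settle it. Knockout replicate 2 was nearest to wild-type replicate 3 (0.478). The replicate block called 282 genes, 2 of the 10 members and 3 other pathway genes, with adjusted p = 0.00205 for Eng and 0.00362 for Tgfb1.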
